A study of Mus musculus with 6 samples.

Results

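The genes described here are 10 components of bone morphogenetic protein (BMP) signalling, measured by bulk RNA sequencing in epithelial cells of the embryonic mouse lung. The cells came from a conditional knockout of the transcription factor gene Grhl2, with 1 floxed and 1 null copy. Controls had 1 floxed and 1 intact copy. The 10 genes are the ligand genes Bmp2, Bmp4 and Bmp7 and the receptor genes Bmpr1a, Bmpr1b and Bmpr2. They also include the target genes Id1 and Id3 and the inhibitory SMAD genes Smad6 and Smad7. The members were picked by name, as the rows of the deposited count table whose Entrez identifier maps to these symbols. All 10 were found among the 27179 rows, and all 10 passed the filter on low counts that left 14842 genes for testing.

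BMP ligands are secreted dimers that bring type I and type II receptors together on the cell surface. The type II receptor activates the type I receptor, which phosphorylates the receptor SMADs encoded by Smad1, Smad5 and Smad9, and these enter the nucleus with the product of Smad4. There they switch on Id1, Id3 and the genes of the inhibitory SMADs, which dampen the signal in return. In the developing lung Bmp4 is known for its expression in the epithelium of the distal branch tips, where BMP signalling takes part in branching and in the proximal to distal pattern of the epithelium.

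Lungs were taken at E16.5 (E, embryonic day), dissociated, and sorted by flow cytometry for EpCAM, an epithelial surface protein. Every embryo carried Shh-Cre, a recombinase expressed from the Sonic hedgehog locus, which is active in lung epithelium. Control samples were Shh-Cre;Grhl2f/+ (n = 3, replicates 1, 3 and 7), so they had 1 floxed and 1 intact allele, and their cells can keep 1 working Grhl2 copy where Cre acted. Knockout samples, called Grhl2_cKO, were Shh-Cre;Grhl2f/- (n = 3, replicates 1, 5 and 10), with 1 floxed and 1 null allele. Control replicate 7 and Grhl2_cKO replicate 1 were female and the other 4 samples male. The sources used here do not say whether a sample was 1 embryo or a pool, so the p-values rest on the spread among these 6 samples, whatever its origin.

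Library totals ran from 13472216 to 17228762 counts. Values per library are given in CPM (counts per 1000000, scaled between libraries), always in the order of control replicates 1, 3 and 7 and of Grhl2_cKO replicates 1, 5 and 10. For Grhl2 the control libraries read 149.0, 147.8 and 145.9 CPM and the knockout libraries 105.3, 109.1 and 115.2 CPM, which is 74.5% of control (edgeR adjusted p = 0.00204). The count covers the whole gene, exons outside the floxed segment included, so it does not measure how many cells recombined. Epcam, the gene of the sorted protein, was lower in Grhl2_cKO, at 361.0 ± 36.2 against 534.1 ± 29.7 CPM (SD, n = 3 each; edgeR adjusted p = 0.00527). The 10 epithelial markers summed to 16119 to 18970 CPM, most of it from the surfactant gene Sftpc, and the other 9 to 3534 to 3937 CPM. The sums were 188.5 to 260.5 CPM for 10 endothelial and 875 to 1812 CPM for 10 mesenchymal markers. No marker of these lists was at 0 in all libraries, and the sums of these 3 lists overlapped between the genotypes. Of the 9 heart muscle markers Myh7 rose, from 138.4 to 146.5 CPM in controls to 191.5 to 200.5 CPM in Grhl2_cKO (edgeR adjusted p = 0.000848). The other 8 summed to 55.0, 32.3 and 38.8 CPM in the control libraries and 235.3, 38.4 and 30.2 CPM in the knockout libraries, so they stood apart in Grhl2_cKO replicate 1 alone (Actc1 51.3 CPM there, 3.74 to 11.7 CPM in controls). In the ciliated cell list, 5 of 6 genes fell, and the sum was 66.5 to 96.96 CPM in Grhl2_cKO against 122.6 to 161.2 CPM. In sorted bulk cells, fewer cells of a type and less RNA per cell cannot be told apart.

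Promoter sequence, from RefSeq on GRCm38, the assembly of mm10, is shown for Bmp4. For Id3, Bmpr1a and Bmpr2 it is shown round matches to a searched motif. RefSeq windows of 300 bases, 250 before and 50 after a transcript start, were given for 6 of the 10 members, Bmp4, Bmpr1a, Bmpr1b, Bmpr2, Id3 and Smad6. They were searched on both strands for GGCGCC and CAGAC, short sequences that SMAD proteins are known to bind, and for CCGGTT, the core of the grainyhead site. GGCGCC is its own reverse complement, and none of the 3 contains another. The 250 bases before the start of Bmp4, the member with the clearest difference between genotypes, held none of the 3, nor did the 50 bases after it, so no letter is in capitals. They lie on the minus strand at chr14:46390670-46390919, outside the exons annotated by GENCODE M21.
Bmp4: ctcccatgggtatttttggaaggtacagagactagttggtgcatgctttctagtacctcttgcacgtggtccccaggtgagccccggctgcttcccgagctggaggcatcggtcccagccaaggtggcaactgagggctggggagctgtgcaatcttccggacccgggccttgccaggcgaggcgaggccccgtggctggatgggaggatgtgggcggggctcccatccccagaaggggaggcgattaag

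Id3, a direct SMAD target in textbook accounts, held CAGAC at 2 places, 1 on each strand, at chr4:136143643-136143671 and chr4:136143742-136143770 (plus strand). GGCGCC was found in the windows of the receptor genes Bmpr1a, at chr14:34502727-34502756 (minus strand), and Bmpr2, at chr1:59764162-59764191 (plus strand). Each stretch is shown with its match in capitals. The stretches of Id3 and Bmpr2 lie within first exons annotated by GENCODE, which starts these genes further upstream than RefSeq does. The stretch of Bmpr1a lies inside the RefSeq bounds of the gene (34411061 to 34503336) and outside exons annotated by GENCODE. Its window belongs to a transcript that starts within these bounds.
Id3 first: tgtcctcggcgtCAGACcagcctaaggaa
Id3 second: ggacccttggcgGTCTGttttgaataagg
Bmpr1a: tgcgcgcgcgccGGCGCCtcttgctcgccc
Bmpr2: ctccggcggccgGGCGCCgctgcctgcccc

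Across all 32851 windows of the table, 11.9% held GGCGCC, 49.6% held CAGAC and 6.8% held CCGGTT. The 6 members had 8 windows between them. Of these 8 windows, 2 held GGCGCC (Bmpr1a and Bmpr2), 3 held CAGAC (Id3 and Bmpr1b) and 0 held CCGGTT. Matches in Bmpr1b are not shown. These are matches of letters in short windows, and binding was not measured.

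The comparison of the genotypes asks whether BMP signalling genes differ in lung epithelium when Grhl2 is deleted. None of the 10 members was called different by the quasi-likelihood test of edgeR at a Benjamini-Hochberg adjusted p under 0.05, where 3.59% of all tested genes were called. At an unadjusted p under 0.05 there was 1 member, Bmp4, against 13.3% of all tested genes. DESeq2 called 1 member, again Bmp4 (4.18% of its genes were called), and limma-voom called none. The estimates of 9 members lay above 0 and that of Bmpr2 below, with a median log2 fold change of 0.15, beside a median of -0.004 and 48.5% above 0 over all tested genes. CPM did not overlap between the groups for 2 members, Bmp4 and Bmpr1a, both higher in Grhl2_cKO, against 8.17% of tested genes in that direction, 9.89% in the other and 18.1% in either.

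**Figure D1:**
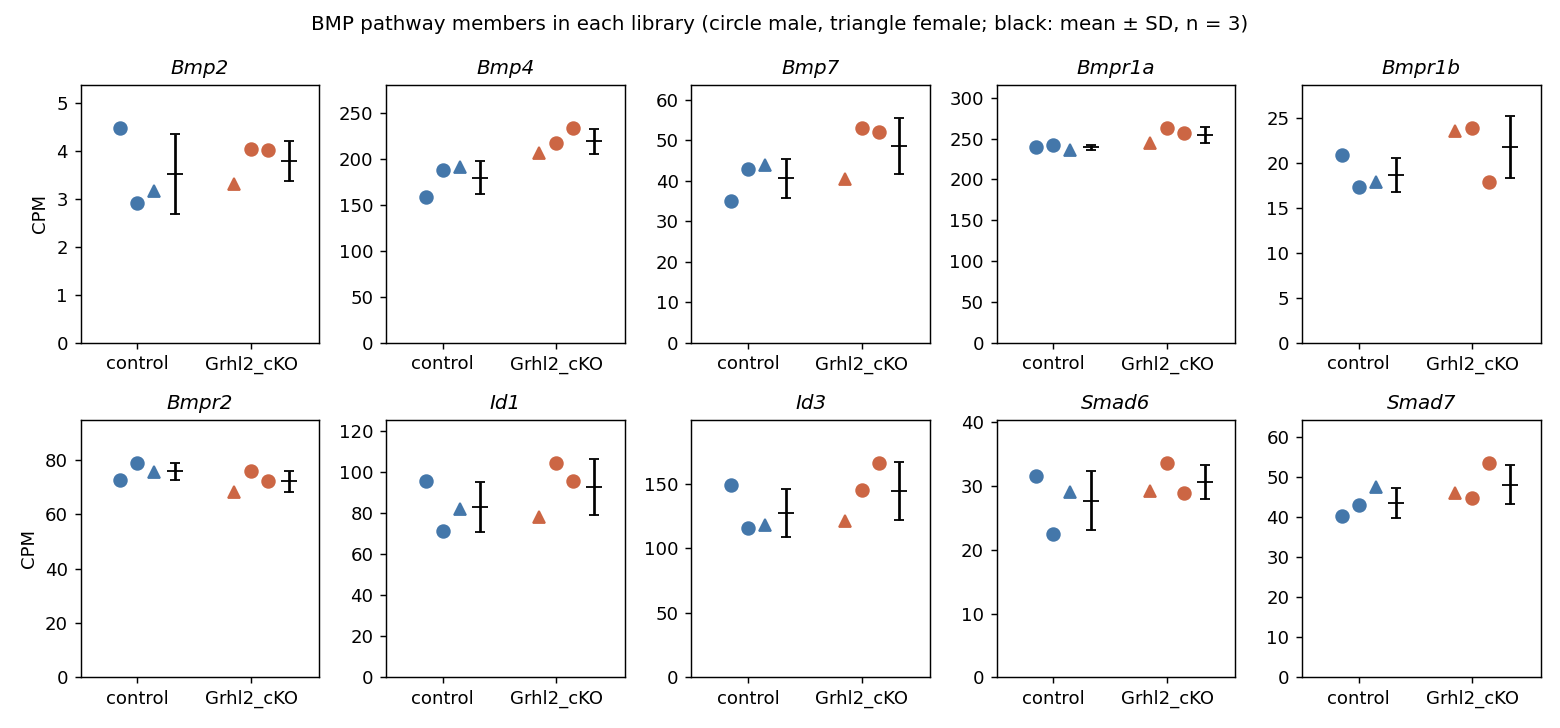
CPM of each of the 10 members (y axis, from 0) in the 3 control and 3 Grhl2_cKO libraries (x axis); circles are male and triangles female libraries, and black marks give mean ± SD. The Bmp4 points of Grhl2_cKO, at 206.5 to 233.8 CPM, sit above the 158.7 to 191.0 CPM of controls, while 8 of the 10 panels overlap.

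Among the ligands, Bmp4 (Entrez 12159, chromosome 14, 46383525 to 46390669, mm10) read 158.7, 188.4 and 191.0 CPM in the control libraries. The knockout libraries read 206.5, 217.7 and 233.8 CPM. Each knockout library lay above each control library, and control replicate 1 was the lowest of all. The group means were 179.4 ± 17.9 and 219.3 ± 13.7 CPM (SD, n = 3 each), a 1.22-fold difference with a 95% interval of 1.08 to 1.38 (log2 fold change 0.29 ± 0.08 SE). It missed the threshold in the main edgeR fit (adjusted p = 0.0885). It passed in edgeR without the low-count filter (adjusted p = 0.0379) and in DESeq2 (adjusted p = 0.0161), within 0.0161 to 0.237 over 16 alternatives. A gene on the opposite strand, Gm15217, shares exon sequence with Bmp4, and no source used here says whether counting used strand, so reads of the 2 genes may not be separated. Bmp4 is itself 1 of 8 distal tip markers, which summed to 3141 to 3607 CPM in controls and 3344 to 3539 CPM in Grhl2_cKO. Of the 7 others none was called with edgeR, DESeq2 or limma-voom, none had an unadjusted p under 0.05, and their median log2 fold change was 0.007. Mesenchymal cells can express Bmp4 too, and their part in its level was not tested.

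Bmp7 (Entrez 12162, chromosome 2, 172868012 to 172940321) encodes a ligand that can pair with the products of Bmp2 and Bmp4. It read 35.0, 42.9 and 43.8 CPM in the control libraries and 40.6, 53.1 and 51.9 CPM in the knockout libraries. Grhl2_cKO replicates 5 and 10 were above every control, whereas replicate 1 lay within the control range. The 1.19-fold difference had an interval of 0.99 to 1.43 and did not pass (edgeR adjusted p = 0.403).

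Bmp2 (Entrez 12156, chromosome 2, 133552159 to 133562896) was the member with the fewest reads, 48 to 68 counts per library. It read 4.48, 2.92 and 3.16 CPM in the control libraries and 3.30, 4.04 and 4.02 CPM in the knockout libraries. Control replicate 1 held the highest value and control replicate 3 the lowest, so the controls spanned the whole range. Its fold interval of 0.78 to 1.50 was the widest of the 10 members (edgeR adjusted p = 0.938), and without control replicate 3 its log2 fold change went from 0.12 to -0.005.

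Per gene length, using the gene lengths in the deposited table, Bmp4 was the leading ligand. It made up 62.5%, 66.3% and 66.8% of the summed level of 8 ligand genes (Bmp2, Bmp3, Bmp4, Bmp5, Bmp6, Bmp7, Bmp8a and Bmp8b) in the control libraries. In the knockout libraries its share was 69.5%, 68.1% and 69.8%. The shares of the groups did not overlap, and with 3 against 3 no single value can reach an exact permutation p below 0.1, so none is given. Bmp5 and Bmp7 followed, at 14.6% ± 2.30 and 14.9% ± 0.84 in controls and 12.1% ± 0.54 and 15.5% ± 1.52 in Grhl2_cKO (SD, n = 3 each). Bmp2 held 1.03% ± 0.32 and 0.945% ± 0.061. The shares of Bmp3, Bmp5 and Bmp8b did not overlap between the groups either, each lower in Grhl2_cKO. That of Bmp5 was 13.0% to 17.2% in controls and 11.6% to 12.7% in Grhl2_cKO. The share of Bmp4 also moves with the other ligands, which are described below.

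Of the receptor genes, Bmpr1a (Entrez 12166, chromosome 14, 34411061 to 34503336), which encodes a type I receptor, had the smallest relative spread among controls of the 10 members. It read 239.9, 242.3 and 235.7 CPM in the control libraries and 244.0, 263.1 and 256.3 CPM in the knockout libraries. The groups did not overlap, but the gap between the highest control and the lowest knockout library was small beside the spread in Grhl2_cKO (SD 9.71 CPM, against 3.32 CPM in controls). The difference was 1.06-fold, with an interval of 0.98 to 1.16 (edgeR adjusted p = 0.618). The antisense gene Gm17110 shares exon sequence with Bmpr1a, with the same limit on strand.

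Bmpr1b (Entrez 12167, chromosome 3, 141837135 to 142169585) encodes the other classical BMP type I receptor. Control libraries read 20.9, 17.4 and 17.9 CPM of it, knockout libraries 23.6, 23.9 and 17.9 CPM. Grhl2_cKO replicate 10 lay with the controls and the other 2 knockout libraries above them, a 1.17-fold difference (interval 0.96 to 1.42; edgeR adjusted p = 0.567). Bmpr1b was a minor receptor in both genotypes: per length, Bmpr1a made up 70.5% ± 2.17 and Bmpr1b 5.50% ± 0.46 of the 4 type I receptor genes Bmpr1a, Bmpr1b, Acvr1 and Acvrl1 in controls (SD, n = 3). In Grhl2_cKO these shares were 72.1% ± 0.42 and 6.19% ± 1.06.

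Bmpr2 (Entrez 12168, chromosome 1, 59764279 to 59878081), which encodes the BMP type II receptor, was the 1 member with an estimate below 0. It read 72.7, 79.0 and 75.8 CPM in the control libraries and 68.3, 76.1 and 72.2 CPM in the knockout libraries. The groups overlapped, with a fold of 0.95 and an interval of 0.86 to 1.05 (edgeR adjusted p = 0.792). Its share of the 3 type II receptor genes Bmpr2, Acvr2a and Acvr2b per length was 54.5% ± 1.61 in controls and 54.3% ± 0.68 in Grhl2_cKO (SD, n = 3 each).

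Id1 and Id3 encode helix-loop-helix proteins without a DNA-binding region, which hold back other factors of that class, and both are standard readouts of BMP signalling. Id1 (Entrez 15901, chromosome 2, 152736251 to 152737410) read 95.4, 71.4 and 81.8 CPM in the control libraries and 77.9, 104.4 and 95.6 CPM in the knockout libraries. Id3 (Entrez 15903, chromosome 4, 136143822 to 136145392) read 149.0, 115.7 and 118.1 CPM in the same controls and 121.5, 145.1 and 166.5 CPM in the same knockout libraries. In both genes control replicate 1 was the highest control and Grhl2_cKO replicate 1 the lowest knockout library, so the groups overlapped. The folds were 1.12 (interval 0.93 to 1.35) for Id1 and 1.13 (interval 0.94 to 1.37) for Id3, and neither passed (edgeR adjusted p = 0.718 and 0.67).

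Id genes are also expressed in endothelium, and the 10 endothelial markers summed to 188.5 to 260.5 CPM in controls and 238.9 to 252.0 CPM in Grhl2_cKO. None of the 10 was called with edgeR or with DESeq2 or limma-voom, and 2 had an unadjusted p under 0.05, against 13.3% of all tested genes. Of the 10 estimates 9 lay above 0 (48.5% of all), with a median log2 fold change of 0.06. In 2 of the 10 the groups did not overlap, both higher in Grhl2_cKO, against 8.17% of tested genes in that direction. The part of endothelial cells in the Id levels was not tested.

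Smad6 and Smad7 encode inhibitory SMADs, Smad6 acting mainly on the BMP branch and Smad7 on the BMP and TGF-beta branches. Smad6 (Entrez 17130, chromosome 9, 63953076 to 64022085) read 31.6, 22.5 and 29.0 CPM in the control libraries and 29.1, 33.6 and 28.9 CPM in the knockout libraries. Smad7 (Entrez 17131, chromosome 18, 75367365 to 75395935) read 40.2, 43.1 and 47.5 CPM in controls and, in the knockout libraries, 46.0, 44.9 and 53.7 CPM. The groups overlapped for both, with control replicate 3 the lowest library for Smad6 and Grhl2_cKO replicate 10 the highest for Smad7. Both folds were close to 1.1 and neither passed, at 1.11 (interval 0.91 to 1.34; edgeR adjusted p = 0.768) and 1.10 (interval 0.96 to 1.27; edgeR adjusted p = 0.643).

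The levels of the members differed far more between genes than between genotypes. On the scale of CPM per kb of gene length, the mean over the 6 libraries was 142.7 for Id3, 99.98 for Bmp4, 96.3 for Id1 and 46.3 for Bmpr1a. It was 22.6 for Bmp7, 21.1 for Bmpr2, 10.3 for Smad7 and 9.80 for Smad6, and 3.80 for Bmpr1b and 1.45 for Bmp2. Id3 ranked 1, Bmpr1a 4, Bmpr1b 9 and Bmp2 10 in each of the 6 libraries. Neighbours changed places between libraries in 3 cases, Bmp4 with Id1, Bmp7 with Bmpr2 and Smad7 with Smad6. Bmp7 lay above Bmpr2 in every knockout library and in control replicate 7, and below it in control replicates 1 and 3. Levels of different genes were not tested against each other. Id2, a further member of the Id family, took the largest share of the 4 Id genes per length, 62.1% ± 4.48 in controls and 60.6% ± 2.08 in Grhl2_cKO. Id3 held 21.9% ± 2.51 and 22.7% ± 1.47, and Id1 14.9% ± 1.86 and 15.3% ± 1.39 (SD, n = 3 each).

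**Figure D2:**
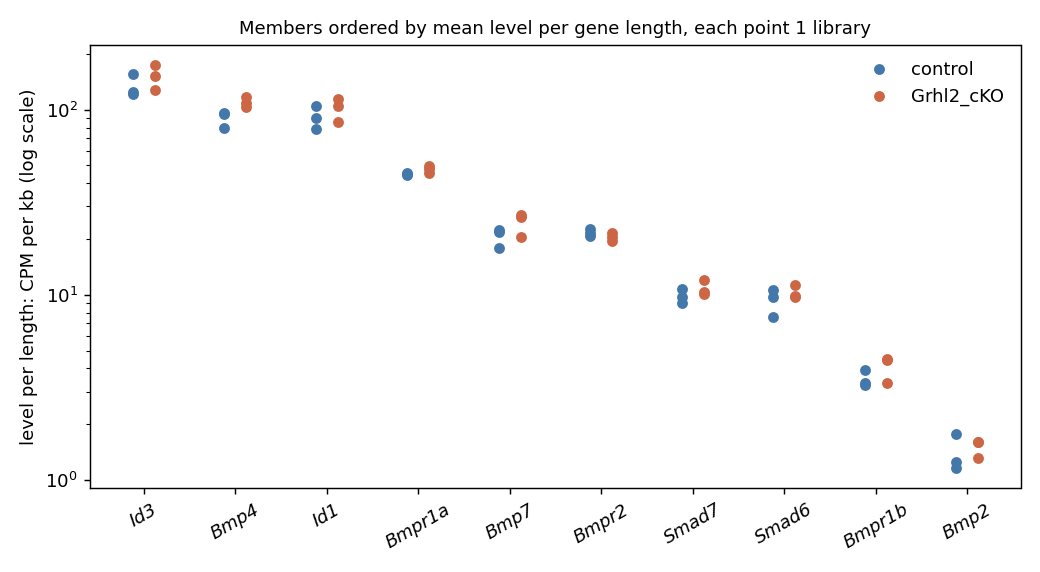
Level of each member per gene length (y axis, CPM per kb, log scale), with members ordered along the x axis by their mean over 6 libraries and each point 1 library, blue for control and orange for Grhl2_cKO. Levels run from 1.45 for Bmp2 to 142.7 for Id3, and the genotypes of 1 gene lie close together beside the distance between most genes.

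Members did not share 1 order of libraries. Among controls, replicate 1 was the highest for 5 members (Bmp2, Bmpr1b, Id1, Id3 and Smad6) and the lowest for 4 (Bmp4, Bmp7, Bmpr2 and Smad7). Replicate 3 was the lowest control for the same 5 members in which replicate 1 was the highest. Among knockout libraries, replicate 5 was the highest for 7 members and replicate 1 the lowest for 7. Grhl2_cKO replicate 1 was also the library with the highest sums of heart muscle and mesenchymal markers (435.8 and 1812 CPM). Its sums of epithelial, immune cell, and neuron and glia markers were the highest too (18970, 21.2 and 20.2 CPM). Without this library no member was called. In that fit the log2 fold change went from 0.29 to 0.33 for Bmp4, from 0.26 to 0.37 for Bmp7, from 0.12 to 0.21 for Bmp2, from 0.16 to 0.27 for Id1 and from 0.18 to 0.29 for Id3, and from 0.22 to 0.16 for Bmpr1b. Those of Bmpr1a, Smad6 and Smad7 were 0.12, 0.18 and 0.18, and that of Bmpr2 was -0.03. Leaving out a control library also moved the estimates. Without control replicate 1 the log2 fold changes of Bmp4, Bmp7, Bmp2, Id1, Id3 and Smad6 were 0.22, 0.17, 0.33, 0.28, 0.31 and 0.26. Without control replicate 3 they were 0.33, 0.30, -0.005, 0.065, 0.11 and 0.014 in the same order. The part of other cell types in the members' values was not tested.

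**Figure D3:**
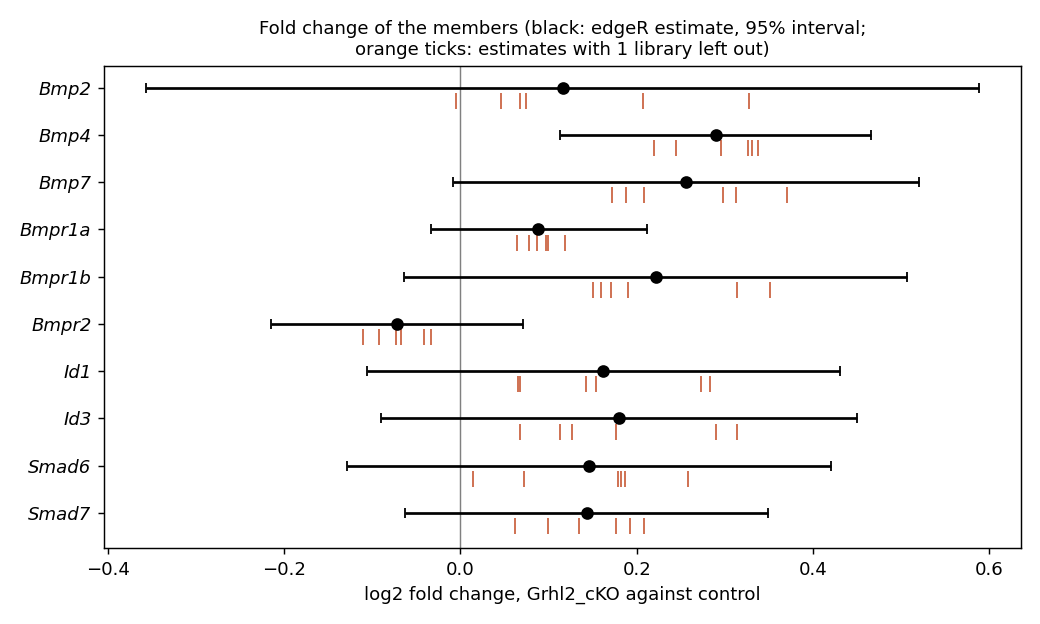
The log2 fold change of each member, Grhl2_cKO against control (x axis), with the edgeR estimate and its 95% interval in black and the 6 estimates with 1 library left out as orange ticks. The interval of Bmp4 alone leaves out 0, and Bmp2 has the widest interval and the 1 tick below 0 among the 9 members with a positive estimate.

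The intervals differed in width between members. For the 9 members other than Bmp2 the fold intervals together ran from 0.86 to 1.43, and for Bmp2 from 0.78 to 1.50. The narrowest was that of Bmpr1a, at 0.98 to 1.16.

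The wider BMP pathway was read from a list of 67 genes, the 10 members included, of which 52 were tested. With edgeR none was called higher and 1 was called lower, where 1.21% and 2.38% of all tested genes were, and 10 of the 52 had an unadjusted p under 0.05, against 13.3% of all tested genes. Limma-voom also called 1, lower, and DESeq2 called 3, Bmp4 higher and Bmp3 and Bmp8b lower. The called gene was Bmp3, which encodes a ligand known to act against other BMPs (chromosome 5, 98854415 to 98884053). It read 11.9, 11.9 and 10.3 CPM in the control libraries and 8.35, 5.20 and 6.33 CPM in the knockout libraries, without overlap. Bmp3 fell to 58.4% of control (log2 fold change -0.78 ± 0.17 SE; edgeR adjusted p = 0.0337). Without any 1 library other than Grhl2_cKO replicate 1 the call was lost (adjusted p = 0.0557 to 0.131, in a range of 0.00499 to 0.131 over 16 alternatives).

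Of the 10 ligand genes besides the members, 5 were tested, Bmp3 among them. Of the 5 estimates 1 lay above 0 (48.5% of all), with a median of -0.07. Bmp8b read 4.11, 3.41 and 4.26 CPM in the control libraries and 2.58, 1.93 and 1.07 CPM in the knockout libraries. The groups did not overlap, at 47.5% of control, and edgeR missed the threshold (adjusted p = 0.0802) where DESeq2 passed it (adjusted p = 0.0412). Bmp8a and Bmp8b are close copies in sequence, so their counts are uncertain. The log2 fold change was -0.05 ± 0.08 for Bmp5 (edgeR adjusted p = 0.923) and 0.14 ± 0.31 for Bmp6 (0.955).

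Secreted antagonists and modulators had no call among 13 tested genes of 19 with edgeR, DESeq2 or limma-voom, though 5 had an unadjusted p under 0.05 (13.3% of all tested genes did) and 10 estimates lay above 0 (48.5% of all), with a median of 0.18 beside -0.004. Twsg1, which encodes a BMP-binding modulator, averaged 164.0 ± 2.63 CPM over the controls and 182.8 ± 6.83 CPM over the knockout libraries (SD, n = 3 each; edgeR adjusted p = 0.166). Chrd, the gene of the antagonist chordin, averaged 3.20 ± 0.65 CPM and 4.68 ± 0.81 CPM in the same order (SD, n = 3 each; edgeR adjusted p = 0.28). The groups of Twsg1, of Chrd and of Bmp1 (edgeR adjusted p = 0.302) did not overlap, each higher in Grhl2_cKO. Over all tested genes 8.17% did so in that direction. Htra1, a secreted protease gene, and Nbl1, an antagonist gene, stood at 1.28-fold and 1.31-fold of control (edgeR adjusted p = 0.278 and 0.299), and both were called higher without control replicate 1, as was the target gene Id4.

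Among receptors and co-receptors besides the members, none of 8 tested genes was called by any of the 3 tools and none had an unadjusted p under 0.05. Eng, Rgma, Rgmb and Neo1, all co-receptor genes, lay at 0.19 ± 0.11, 0.13 ± 0.09, 0.12 ± 0.09 and 0.07 ± 0.06 in log2 fold change (edgeR adjusted p = 0.551 to 0.759). The other 4, all receptor genes, lay below 0, the lowest at -0.11. The median of the 8 was 0.006. Only for Neo1 did the groups not overlap, higher in Grhl2_cKO, against 8.17% of tested genes in that direction. Of the SMAD genes and their regulators besides Smad6 and Smad7, none of 10 was called by any of the 3 tools and none had an unadjusted p under 0.05. Smad9 and Smad5, both receptor SMAD genes, lay at log2 fold changes of 0.18 ± 0.10 and -0.10 ± 0.08. Smurf1, a ubiquitin ligase gene, and Tob2 had -0.07 ± 0.06 and -0.09 ± 0.09. Of these 10 estimates 5 lay above 0 (48.5% of all), with a median of -0.03.

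Target genes besides the members had no call among 6 tested of 9 with edgeR, DESeq2 or limma-voom, with 2 at an unadjusted p under 0.05, where 13.3% of all tested genes were. All 6 estimates lay above 0, as did 48.5% of all, with a median of 0.26 beside -0.004. Id4, of the same family as Id1 and Id3, read 14.2, 9.43 and 9.22 CPM in the control libraries and 12.6, 16.2 and 19.8 CPM in the knockout libraries (edgeR adjusted p = 0.198). Control replicate 1 lay within the knockout range, as it did for Id1 and Id3. Atoh8 had a log2 fold change of 0.19 ± 0.08 without overlap (edgeR adjusted p = 0.366), Hey1 of 0.19 ± 0.15 (edgeR adjusted p = 0.747) and Msx2, at under 1.5 CPM in each library, of 0.79 ± 0.41 (edgeR adjusted p = 0.488).

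**Figure D4:**
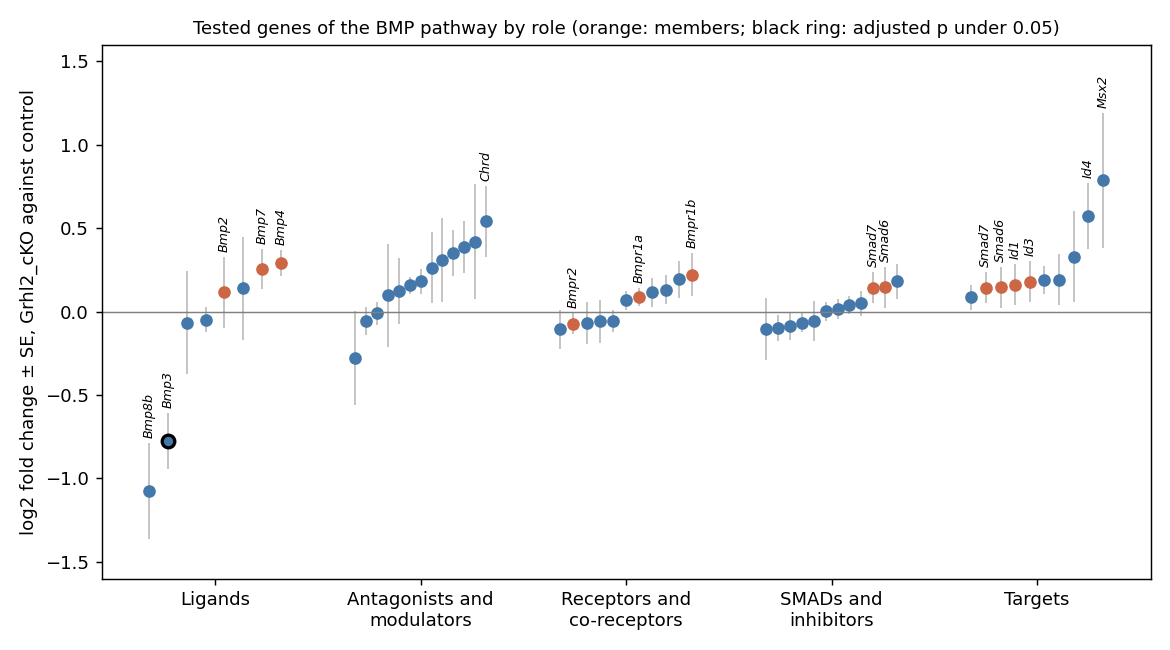
The log2 fold change ± SE, Grhl2_cKO against control (y axis), of each tested gene of the BMP pathway list, grouped by role (x axis), with the members in orange and a black ring for an edgeR adjusted p under 0.05. Bmp3 carries the 1 ring, and Bmp4 has the highest estimate among the ligands; Smad6 and Smad7 appear in both of their roles.

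In the sister branch of TGF-beta and activin none of 16 tested genes was called with edgeR or limma-voom and 3 had an unadjusted p under 0.05, against 13.3% of all tested genes. DESeq2 called 1, the ligand gene Tgfb3. It read 88.4, 91.0 and 88.7 CPM in the control libraries and 115.5, 97.5 and 115.3 CPM in the knockout libraries, without overlap (log2 fold change 0.29 ± 0.07 SE; edgeR adjusted p = 0.0574; DESeq2 adjusted p = 0.0178). Of the receptor SMAD genes of that branch, Smad3 had a log2 fold change of -0.26 ± 0.07 without overlap (edgeR adjusted p = 0.0986) and Smad2 of 0.004 ± 0.064 (edgeR adjusted p = 0.996). Ltbp1, which encodes a binding protein of latent TGF-beta, had one of 0.20 ± 0.07 (edgeR adjusted p = 0.189) and Itgb6, an integrin gene, of -0.17 ± 0.08 (edgeR adjusted p = 0.421). The groups did not overlap for Ltbp1 and Itgb6 either. Of the 16 genes 2 were higher and 2 lower without overlap, against 8.17% and 9.89% of tested genes. The 16 estimates were split evenly, 8 above and 8 below 0. Whether the members differ from this branch was not tested.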

How the data were processed

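The 6 libraries are stranded polyadenylated RNA libraries from EpCAM-sorted cells, per the labels' protocols. Raw counts by Entrez gene, with gene lengths, came as 1 table that the authors deposited. Per the submitters' processing notes, bcl2fastq 2.17.1.14, featureCounts, edgeR 3.16.5 and limma 3.30.12 were used on mm10. No source used here names the aligner, the strand setting or the handling of reads with several matches.

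Symbols and coordinates came from a RefSeq table on GRCm38, which matched 25275 identifiers (92.99%). Totals per library were 13472216 to 17228762 counts, and 3 counts, the limit that a count of 0 allows, are 0.178 to 0.224 CPM (counting error only). Replicates differed by more than counting noise in every pair (chi-square over its degrees of freedom, 7.72 to 12.9).

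Genotypes were compared with edgeR 4.0.16 (R 4.3.3), using TMM factors (0.981 to 1.009), filterByExpr (minimum count 10, total 15; 12337 genes left out), glmQLFit and glmQLFTest without covariates, and Benjamini-Hochberg adjustment over 14842 genes at 0.05. The SE was taken as the log2 fold change divided by the root of F, and 95% intervals use the degrees of freedom of the fit. CPM are on TMM-scaled totals. Alternatives were 3 other scalings (RLE, upper quartile, totals alone), no filter, 1 CPM in 3 libraries, DESeq2 1.42.0, limma-voom (limma 3.58.1), robust quasi-likelihood, sex as a covariate, male libraries only, and leaving out each library. Named genes are Grhl2, Epcam, the 10 members, called pathway genes and markers of lists that stand apart. Up to 4 others of each role with the smallest p are also named. Id2, Smad2, Sftpc, Bmp1 and the genes under other observations were chosen after their values were seen. The members and lists were chosen with earlier results of these data known.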

Additional observations from a re-analysis of the deposited data

How the results depend on the processing

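Over 16 alternatives, 9 members kept their direction in each fit and Bmp2 in all but 1, without control replicate 3 (log2 fold change -0.005, in a range of -0.005 to 0.327 without 1 library). The count of called members was 0 in the main edgeR fit. It was 1, Bmp4, with edgeR without a filter and with DESeq2 (adjusted p = 0.0379 and 0.0161), and 0 in every fit without 1 library. Of the pathway list 1 gene was called, against 3 with no filter and 3 with DESeq2 (Bmp3, Bmp4 and Bmp8b in both), and 0 to 3 without 1 library. It was 0 without control replicates 3 or 7 or Grhl2_cKO replicates 5 or 10, 3 without control replicate 1 (Htra1, Id4 and Nbl1), and 2 without Grhl2_cKO replicate 1. The count over all genes was 533, and 246 to 501 without 1 library, the lowest without Grhl2_cKO replicate 10. The cause of these differences was not tested. The 3 changes of scaling kept 9 of 10 members above 0 and moved the median of all genes to between -0.006 and 0.011. No paired analysis was possible because the groups share 1 replicate number only. Bmp2 had the fewest reads of the members, at 48 to 68 counts, and the part of depth in its wide interval was not tested.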

Other observations

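Among BMP pathway genes that the low-count filter of edgeR left out, 4 had most of their counts in Grhl2_cKO replicate 1. This was the library with the highest sum of heart muscle markers. Bmp10, a ligand known from heart muscle, had 11 counts there and 0 in each of the other 5 libraries, where 0 allows up to 0.178 to 0.224 CPM. Hjv, a co-receptor gene known from muscle and liver, had 5 counts there and 0 in the others. Sost, an antagonist gene known from bone, had 7 counts there, 1 each in control replicates 3 and 7 and 0 in the other 3 libraries. Sostdc1, an antagonist gene, had 27 counts there, 5 and 11 in Grhl2_cKO replicates 5 and 10, and 1, 2 and 5 in control replicates 1, 3 and 7. Gdf5, a ligand gene that the filter also left out, was spread over all 6 libraries. It had 13, 5 and 9 counts in Grhl2_cKO replicates 1, 5 and 10. Control replicates 1, 3 and 7 had 3, 1 and 3. DESeq2 tested Sostdc1 and Gdf5 and called neither (DESeq2 adjusted p = 0.151 and 0.52).

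The ratio of Grhl2_cKO to control in the male libraries (2 a group) was 1.30 for Bmp4, 1.35 for Bmp7, 1.20 for Id1 and 1.18 for Id3. In the female libraries (1 a group) it was 1.08, 0.926, 0.952 and 1.03. Female ratios lay under 1 for 4 of the 10 members, Bmp7, Bmpr2, Id1 and Smad7. The sex by genotype interaction was not called for any member (edgeR adjusted p = 1 for each of the 10, with 17 of 14842 genes called), and with 1 female library a group it has little precision. The female knockout library is also Grhl2_cKO replicate 1.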
